A study of Mus musculus with 31 samples.

Results

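Interferon-induced genes are the genes that cells switch on when an interferon binds its receptor. A list of 33 such mouse genes was followed across liver arrays, 23 grouped as type I responsive and 10 as type II responsive. Members were taken by the gene symbol that the array annotation gives to each probe set, a group of short probes for 1 transcript. Where a gene had several probe sets with a single symbol, the 1 with the highest mean over all arrays was used. Of the 33 genes, 29 had such a probe set, out of 17097 genes measured in the series. These were 19 type I and all 10 type II responsive genes, and Isg15, Oas1a, Bst2 and Ifi44 were unnamed here. The split is a matter of degree, since many members respond to both kinds of interferon.

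Type I interferons (alpha and beta) signal through Ifnar1 and Ifnar2 and the kinases Jak1 and Tyk2 to a complex that holds Stat2 and Irf9 and binds a DNA element called ISRE. Interferon gamma, the type II interferon, signals through Ifngr1, Ifngr2, Jak1 and Jak2 to an element called GAS and induces Irf1, itself a binder of ISRE-like sites. In liver, hepatocytes and resident macrophages (Kupffer cells) both respond, and the products include antiviral RNA-binding proteins and immunity-related GTPases that attack the vacuoles of intracellular parasites.

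The series addressed mRNAs that depend on Ire1, a sensor of protein folding stress in the endoplasmic reticulum, and on Xbp1, the transcription factor that it activates. Total liver RNA of male mice was measured on 31 arrays in 8 groups of 4 (untreated Ire1 ko had 3), as intensities that are linear and rounded to whole numbers. In the Xbp1 experiment, Xbp1 ko mice and their WT littermates, both labelled c57BL/6, were 14 weeks old and are given as in the fed state. Further Xbp1 ko mice of 9 weeks, also labelled c57BL/6, were taken 8 days after an injection of siRNA against luciferase, the control, or against IRE1. In the Ire1 experiment, WT mice labelled c57BL/6 and Ire1 ko mice labelled as a mixed strain, all of 14 weeks, were untreated or were taken 6 h after 2 mg/kg of tunicamycin, which blocks the glycosylation of new proteins and so stresses the endoplasmic reticulum. The untreated groups of both genotypes are given as fed, and the labels of the tunicamycin and siRNA groups name no feeding state, so feeding cannot be told apart from treatment. The untreated WT mice of this experiment are titled littermates of Ire1 ko, although their strain label and that of Ire1 ko differ. The labels give neither the promoter that drove a deletion nor the deleted part of a gene.

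Before any comparison, the targeted genes were read on every array. Xbp1 intensity was 944 ± 140 (SD, n = 4) in WT littermates and 470 ± 80.3 (SD, n = 4) in Xbp1 ko. Ern1, which encodes Ire1, stood at 169, 184, 236 and 230 on the arrays labelled IRE1 siRNA and at 21, 18, 23 and 35 on those labelled luciferase siRNA, which is against the labels, so these groups are called "labelled" throughout and every direction between them turns if the labels were exchanged. Ern1 was 149 ± 36.6 (SD, n = 4) in untreated WT and 150 ± 2.52 (SD, n = 3) in untreated Ire1 ko, so this probe set does not check the Ire1 ko labels. The array median was 5, and an intensity under 16 is called near the floor here. There, rounding makes large steps in log2 and changes are understated. Hepatocyte markers were bright everywhere, with a sum of 9 genes of at least 39344 on every array. Of the markers of other cells, 11 of 11 measured for T and NK cells, 5 of 5 for B cells and 4 of 4 for plasmacytoid dendritic cells stayed below 16 on all arrays.

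The promoters were searched for the ISRE and GAS letters. Windows from 250 bases before to 50 bases after the start site, credited to RefSeq on GRCm38.p6, were found for 26 of the 33 members, and both strands were searched. The ISRE core (GAAA, any 2 bases, then GAAA) lay in 18 of these 26 members (11 of 17 type I and 7 of 9 type II) and in 3.99% of the 27025 genes with a window. The GAS letters TTCNNNGAA lay in 8 of 26 members (4 of 17 and 4 of 9) and in 9.55% of all genes. The stretches below were picked from members with a match before the start site. Of these, Igtp, Irgm2, Irgm1 and Irf1 fell after tunicamycin in WT and Ire1 ko. Tgtp1, which did not pass the test, and a pair of Ifit genes stand beside them. Iigp1 and Ifi47 also fell in both genotypes and are not shown, since neither had a window with a match. The stretches run 5′ to 3′ on the gene's strand, and capitals mark the ISRE core or GAS letters of either strand.
Igtp (chr11:58199491-58199546, + strand): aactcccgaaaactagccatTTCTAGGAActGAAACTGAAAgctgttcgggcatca
Irgm2 (chr11:58214882-58214937, + strand): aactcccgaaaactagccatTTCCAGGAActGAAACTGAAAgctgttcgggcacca
Tgtp1 (chr11:48992299-48992354, - strand): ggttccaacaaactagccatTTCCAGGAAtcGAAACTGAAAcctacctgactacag
Irgm1 (chr11:48871421-48871470, - strand): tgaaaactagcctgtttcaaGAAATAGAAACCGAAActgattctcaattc
Irf1 (chr11:53769904-53769947, + strand): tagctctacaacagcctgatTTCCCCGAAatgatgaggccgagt
Ifit1 (chr19:34640765-34640828, + strand): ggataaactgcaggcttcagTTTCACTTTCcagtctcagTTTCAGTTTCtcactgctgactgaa
Ifit3 (chr19:34583353-34583431, + strand): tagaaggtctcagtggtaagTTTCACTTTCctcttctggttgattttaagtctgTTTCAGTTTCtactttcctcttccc
In Igtp, Irgm2 and Tgtp1 the GAS letters came first and an ISRE core followed 2 bases later. That joint spelling, the GAS letters, any 2 bases and the ISRE core, was chosen after the sequences were seen, and it lay in 5 of 32851 windows: these 3 and those of Gm12185 and Tgtp2. Irgm1 held overlapping ISRE cores and no GAS letters in its window, and Irf1 held GAS letters and no ISRE core. The Ifit1 and Ifit3 stretches each held a pair of ISRE cores on the opposite strand. These matches are letters in a window and were not measured as binding.

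Of the 29 members, 15 had a mean intensity of 16 or more over all arrays. The type I responsive genes among them were the transcription factors Irf7 and Irf9, the RNA sensors Ddx58 (RIG-I) and Ifih1 (MDA5), the antiviral proteins Ifit3 and Rsad2 (viperin), Xaf1 and the ADP-ribosyltransferase Parp14. The type II responsive genes were the transcription factor Irf1 and the immunity-related GTPases Iigp1, Igtp, Irgm1, Irgm2, Ifi47 and Tgtp1. Members near the floor included Cxcl10, a chemokine that attracts T cells, at 5 to 9 on all arrays, and the antiviral GTPase Mx1, at 3 to 5. Mx1 was the member that did not pass the filter on dim genes, so 28 members were tested in each fit. C57BL/6 mice are known to carry a defective Mx1 allele.

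**Figure D1:**
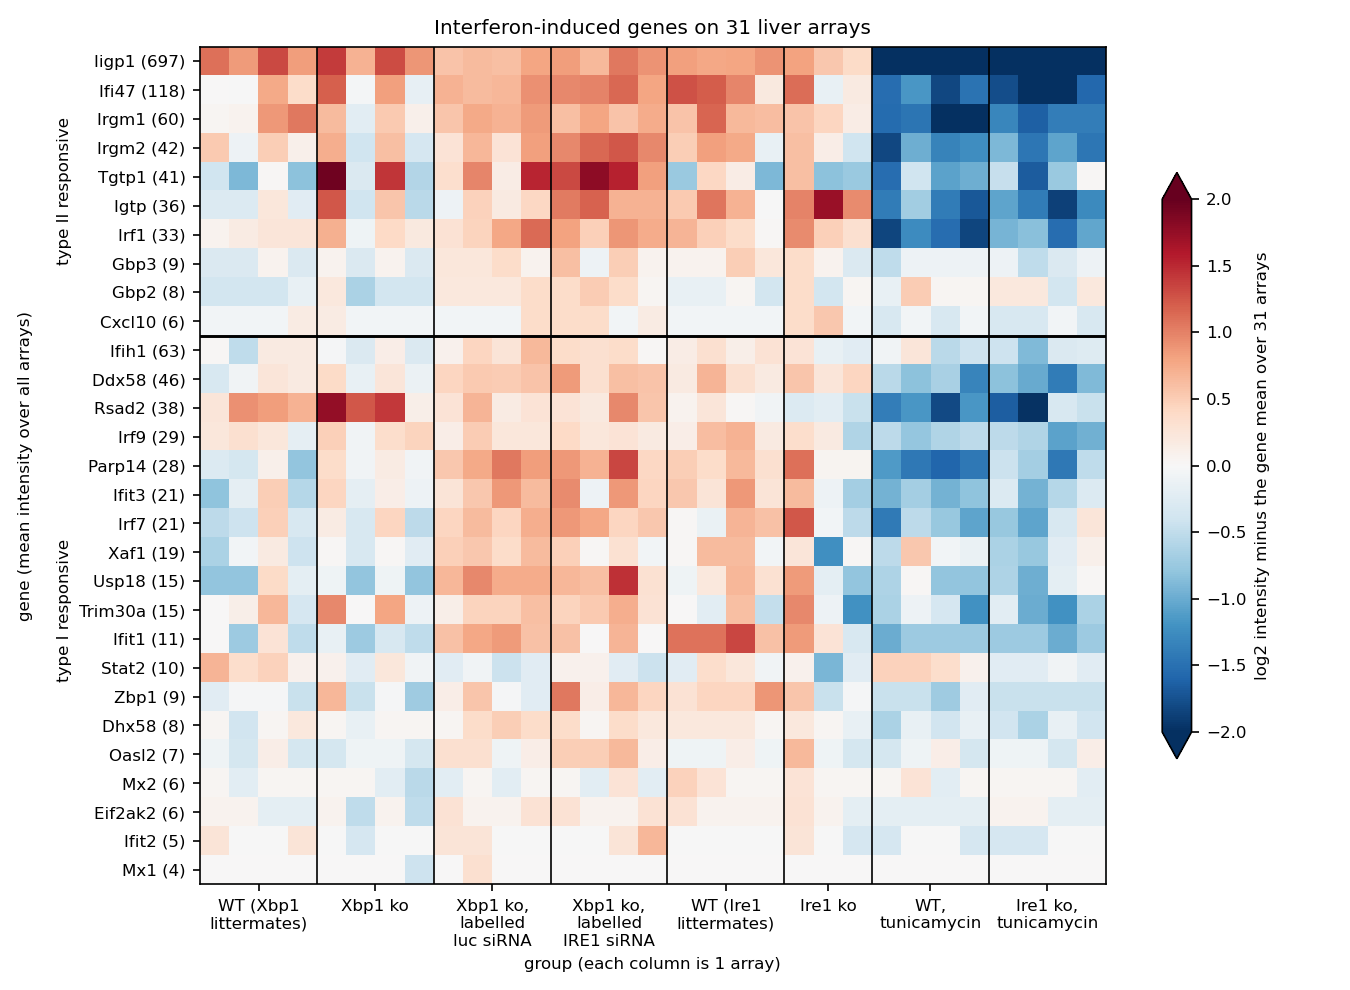
Log2 intensity of each of the 29 measured members (rows, with the mean intensity in brackets) on each of the 31 arrays (columns, by group), minus the gene's mean over all arrays; colours end at 2 in either direction. The 8 tunicamycin arrays at the right are low for most brighter members, and Xbp1 ko replicates 1 and 3 and Ire1 ko replicate 1 are high within their groups.

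Tunicamycin gave the main change. In WT liver, 18 of 28 members tested fell 6 h after the injection and 0 rose (limma, adjusted p below 0.05), where 17.6% of all genes tested were called lower, 18.5% higher and 36.1% in either direction. The arrays did not overlap for 17 members, all lower with tunicamycin, against 14.8% of all genes that were lower without overlap. The median log2 difference was -1.85 over the type II responsive members, -0.68 over the type I responsive members and -0.02 over all genes tested. Over members with a mean of 16 or more the medians were -2.0 (7 type II) and -1.20 (8 type I). The difference between the classes was not tested, and several treated members of both classes were under 16.

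Iigp1, an immunity-related GTPase that coats parasite vacuoles, read 882, 849, 863 and 923 on the untreated WT arrays and 89, 92, 59 and 102 with tunicamycin. All treated arrays lay far below all untreated ones. The difference was -3.39 ± 0.17 on the log2 scale (SE), 10.5-fold lower (limma, adjusted p = 2.89e-10). Of the 15172 genes tested, 0.145% had a lower value. A second Iigp1 probe set read 406 ± 30.4 (SD, n = 4) untreated and 41.0 ± 5.42 (SD, n = 4) treated, the same direction.

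Irgm1, which regulates the other GTPases of its family and autophagy, read 74, 111, 78 and 76 untreated and 17, 18, 12 and 12 treated. It fell by 2.53 ± 0.17 on the log2 scale, 5.77-fold (limma, adjusted p = 5.51e-09). Its highest treated array was below every untreated array. Ifi47, another GTPase of the family, read 222, 213, 180 and 105 against 32, 41, 26 and 33, a difference of -2.41 ± 0.33 (SE; limma, adjusted p = 1.54e-05). The untreated Ifi47 arrays were spread, with replicate 4 lowest, and still did not meet the treated ones. Igtp (Irgm3) read 42, 61, 47 and 29 against 11, 18, 11 and 9, with a log2 difference of -1.87. Irgm2 read 50, 63, 60 and 32 against 10, 18, 14 and 15, with a log2 difference of -1.83. Neither gene's groups overlapped, and both passed the test (limma, adjusted p = 1.95e-05 for Igtp and 1.58e-05 for Irgm2).

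Tgtp1, a further GTPase of this family, was the brighter type II member that did not pass the test. It read 19, 42, 35 and 17 untreated and 11, 24, 15 and 16 treated, a log2 difference of -0.73 ± 0.39 (SE; limma, adjusted p = 0.182). Its groups overlapped, and since Tgtp1 and Tgtp2 are near-identical copies, its probe set may read both. Irf1, the transcription factor that carries the interferon gamma signal onward, read 46, 40, 37 and 29 untreated and 8, 12, 10 and 8 treated. It fell by 2.0 ± 0.19 on the log2 scale (limma, adjusted p = 3.90e-07), and its treated arrays were all near the floor.

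Among the type I responsive members, Parp14 and Ifit1 had the lowest differences. Parp14 read 34, 31, 38 and 30 untreated and 11, 9, 8 and 9 treated, a log2 difference of -1.85 ± 0.24 (SE; limma, adjusted p = 9.19e-06). Ifit1, which binds foreign RNA ends, read 21, 21, 25 and 15 against 5, 6, 6 and 6, a log2 difference of -1.81 ± 0.20 (SE; limma, adjusted p = 1.85e-06). In both genes the groups were apart, and treated Ifit1 was at the floor, so that its fall is a lower estimate. Rsad2 read 33, 37, 32 and 30 against 12, 14, 9 and 14, a log2 difference of -1.45 ± 0.29 (SE; limma, adjusted p = 0.000755). Ifit3 read 28, 23, 35 and 23 against 10, 12, 10 and 11, a log2 difference of -1.32 ± 0.23 (SE; limma, adjusted p = 0.000234). Treated arrays of both genes were below every untreated array.

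The sensors did not move alike. Ddx58 read 48, 68, 53 and 48 untreated and 29, 24, 27 and 17 treated, with no overlap and a log2 difference of -1.18 ± 0.18 (SE; limma, adjusted p = 5.01e-05). Ifih1 read 68, 76, 66 and 75 against 58, 72, 42 and 46, overlapping, with a log2 difference of -0.42 ± 0.18 (SE; limma, adjusted p = 0.0837). The difference between these 2 changes was not tested. Irf7, the amplifier of interferon production, read 19, 17, 30 and 28 against 7, 13, 11 and 9, a log2 difference of -1.23 ± 0.35 (SE; limma, adjusted p = 0.00994). Irf9, the DNA-binding part of the type I complex, read 30, 42, 44 and 31 against 19, 16, 18 and 19, a log2 difference of -1.01 ± 0.20 (SE; limma, adjusted p = 0.000648). Both fell without overlap, while Stat2, the partner of Irf9, read 8, 12, 11 and 9 against 13, 13, 12 and 10, a log2 difference of 0.27 (limma, adjusted p = 0.287). Stat2 was near the floor on every array, at 5 to 15, and a second Stat2 probe set, at 7 to 13, was not used in the main fits.

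The other members called lower in WT had a mean intensity under 16 over all arrays and moved less. They were Zbp1, a sensor of Z-form nucleic acid (-0.96), Usp18, which removes Isg15 and restrains Ifnar2 (-0.82), Dhx58, a regulator of RNA sensing (-0.50), the GTPase Gbp3 (-0.42) and the kinase Eif2ak2, PKR (-0.32). Usp18 read 13, 16, 22 and 17 untreated and 9, 14, 8 and 8 treated, and it was the called member whose arrays overlapped. The Usp18 call was lost in 11 of 17 other settings and the Gbp3 call in 10 of 15, 6 and 8 of them fits that left out a single array (limma, adjusted p up to 0.36 for Usp18 and 0.161 for Gbp3). The Eif2ak2 call was lost in 4 of 15, without untreated WT replicate 1 or tunicamycin WT replicate 1, 2 or 3 (adjusted p up to 0.0843). The Irf7 call was lost in 1 of 17, with intensities below 16 set to 16 (limma, adjusted p = 0.0904). The 10 members that did not pass lay between -0.73 (Tgtp1) and 0.27 (Stat2).

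**Figure D2:**
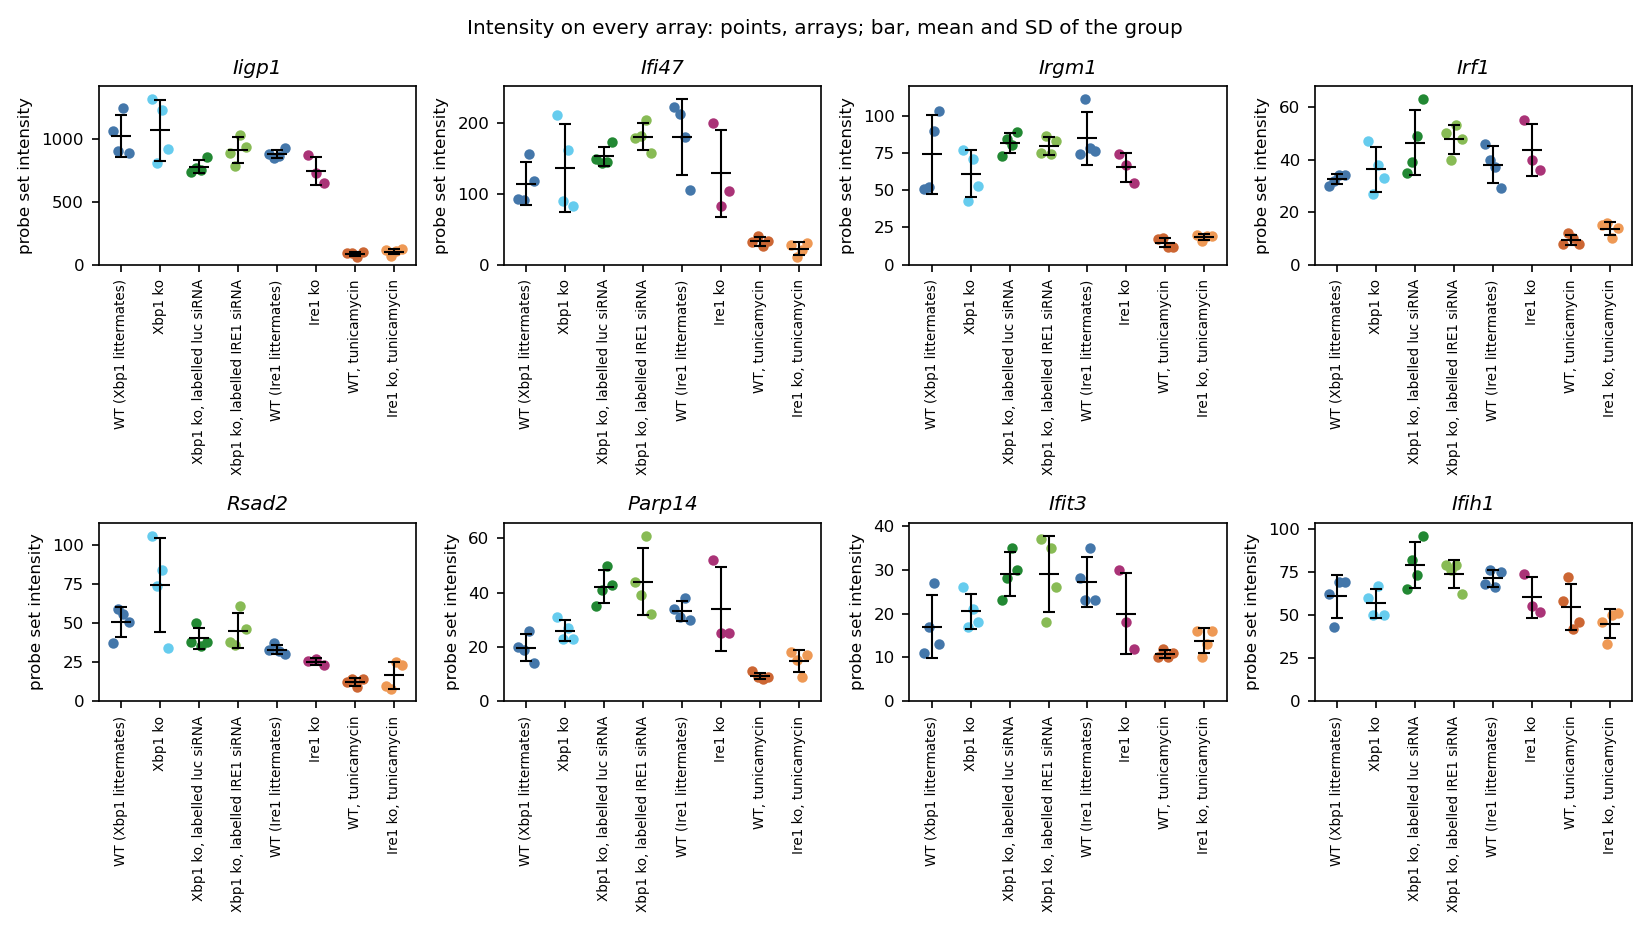
Probe set intensity (linear axis from 0) of 8 members on every array, by group; points are arrays and bars are the group mean and SD. The tunicamycin arrays of Iigp1, Ifi47, Irgm1 and Irf1 lie below all other arrays, while those of Ifih1 overlap the other groups.

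In Ire1 ko liver, 12 of 28 members fell with tunicamycin and 0 rose (limma, adjusted p below 0.05), where 10.3% of all genes tested were called lower, 17.4% higher and 27.7% in either direction. The arrays of 10 members were lower without overlap, against 10.6% of all genes. The median log2 difference was -1.5 over type II responsive members, -0.45 over type I responsive members and 0.00 over all genes. Without untreated Ire1 ko replicate 1, which was high for most members, 10 members fell and the type I median was -0.15, while the type II median was -1.29. With all arrays set to a common median over the brighter probe sets, 19 members fell.

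Iigp1 read 868, 724 and 646 in untreated Ire1 ko and 117, 71, 105 and 121 with tunicamycin, a log2 difference of -2.87 ± 0.19 (SE; limma, adjusted p = 1.65e-08). Igtp read 58, 96 and 56 against 14, 11, 8 and 12, a log2 difference of -2.62 ± 0.28 (SE; limma, adjusted p = 2.66e-06). Ifi47 read 199, 83 and 104 against 27, 11, 21 and 31, a log2 difference of -2.51 ± 0.35 (SE; limma, adjusted p = 4.51e-05). None of these genes overlapped between treated and untreated arrays. Irgm1 (-1.81), Irf1 (-1.67) and Irgm2 (-1.33) also fell without overlap. As in WT, Tgtp1 did not pass (limma, adjusted p = 0.569), with 48, 18 and 19 against 23, 10, 19 and 32.

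Of the 18 type I responsive members tested, 5 were called lower in Ire1 ko, where 10.3% of all genes were, and 11 in WT, where 17.6% of all genes were. Ddx58 read 62, 50 and 57 against 24, 21, 16 and 23, a log2 difference of -1.44 ± 0.19 (SE; limma, adjusted p = 2.91e-05). Parp14 read 52, 25 and 25 against 18, 15, 9 and 17, a log2 difference of -1.16 ± 0.26 (SE; limma, adjusted p = 0.0025). Ifit1 read 18, 12 and 8 against 6, 6, 5 and 6, a log2 difference of -1.07 ± 0.22 (SE; limma, adjusted p = 0.00137). Groups were apart for all 3, with untreated replicate 1 highest each time. The Ifit1 call was lost when intensities below 16 were set to 16 (log2 difference -0.06; limma, adjusted p = 0.695). The calls of Irf9 (-0.77) and Dhx58 (-0.42) were also less firm. That of Irf9 was lost without untreated replicate 1 or 2 (adjusted p up to 0.0804), and that of Dhx58 in 7 of 14 other settings (adjusted p up to 0.151), 5 of which left out a single array. Rsad2 read 26, 27 and 23 against 10, 8, 25 and 23, overlapping, with a log2 difference of -0.79 (limma, adjusted p = 0.0782). The tunicamycin arrays of Rsad2 thus fell into a low and a high pair in Ire1 ko, and without tunicamycin replicate 3 the gene passed the test (-1.04, adjusted p = 0.0164), as it did without replicate 4 (-1.0, adjusted p = 0.0266). Ifit3 passed without untreated replicate 3 (adjusted p = 0.026), as did Trim30a (0.0302), and Zbp1 without untreated replicate 2 (0.0111).

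Members called lower in WT and in Ire1 ko numbered 11, which is 61.1% of the WT calls and 91.7% of the Ire1 ko calls, where the same shares over all genes were 48.4% and 82.5%. The 7 called in WT alone were Eif2ak2, Gbp3, Ifit3, Irf7, Rsad2, Usp18 and Zbp1, and Cxcl10 was called in Ire1 ko alone. A call in one genotype and not in the other does not show a difference. Tested directly, the tunicamycin change differed between the genotypes in 0 of 28 members (limma interaction, adjusted p below 0.05), against 7.53% of all genes. At an unadjusted p below 0.05 there were 3 positive and 1 negative, against 19.3% of all genes in either direction. Irgm1 had the lowest adjusted p, with an interaction of 0.71 ± 0.25 (SE; limma, adjusted p = 0.106). Without untreated Ire1 ko replicate 1 the interaction passed in 3 members, Ifit1 (1.04), Ifit3 (1.20) and Parp14 (1.04), and without untreated Ire1 ko replicate 3 in 1, Cxcl10 (-0.57).

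**Figure D3:**
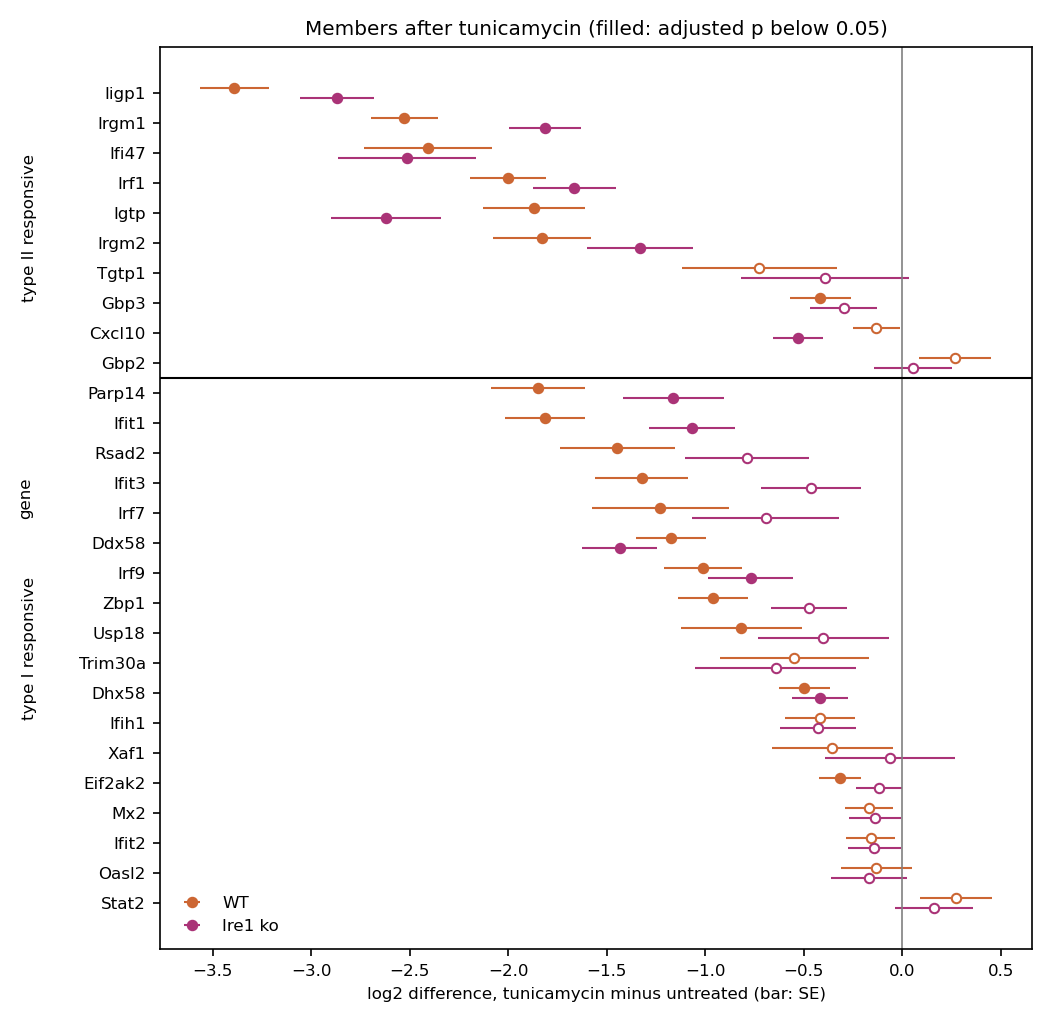
Log2 difference of tunicamycin minus untreated with its SE for the 28 members tested, in WT and Ire1 ko; filled points have an adjusted p below 0.05. Iigp1 lies farthest left in both genotypes, the type I genes Parp14 (in WT) and Ddx58 (in Ire1 ko) lie among the type II genes Irf1 to Irgm2, and Gbp2 and Stat2 lie above 0.

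Between treated Ire1 ko and treated WT, 0 of 28 members passed the test (limma), against 18.2% of all genes, and at an unadjusted p below 0.05 there were 2 higher and 1 lower, against 27.5% of all genes. Those 3 were Irf1 (15, 16, 10 and 14 in Ire1 ko, 8, 12, 10 and 8 in WT, log2 difference 0.53 ± 0.19 SE), Parp14 (0.63 ± 0.24 SE) and Stat2 (-0.53 ± 0.18 SE). Stat2, near the floor on all arrays, was the member without overlap, lower, against 8.79% of all genes. Their adjusted p from limma were 0.0723, 0.0817 and 0.0559. Irf1 passed without WT tunicamycin replicate 2, Stat2 without WT tunicamycin replicate 4, and Irf1 and Parp14 without Ire1 ko tunicamycin replicate 3, so the count lay between 0 and 2 in such fits.

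The class as a whole is summarised by the geometric mean intensity of its brighter members on each array. For type II it was 84.3 ± 17.5 (SD, n = 4) in untreated WT and 19.5 ± 3.81 (SD, n = 4) with tunicamycin, 23.1% of the untreated level. For type I it was 34.9 ± 3.46 (SD, n = 4) and 16.3 ± 1.61 (SD, n = 4), 46.6% of the untreated level. In neither class did the arrays overlap. In Ire1 ko the type II level went from 78.8 ± 19.7 (SD, n = 3) to 21.2 ± 4.12 (SD, n = 4), 26.9% of the untreated level, and the type I level from 29.4 ± 9.05 (SD, n = 3) to 17.5 ± 3.07 (SD, n = 4), 59.4%. The ratio of the type II to the type I level was between 1.91 and 2.88 on untreated WT arrays and between 1.10 and 1.35 on treated ones. In Ire1 ko that ratio was 2.53 to 2.92 untreated and 1.13 to 1.44 treated, so it was lower with tunicamycin on all arrays of either genotype. With tunicamycin both levels were close to the floor, which by itself brings the ratio towards 1, so the ratio does not measure the relative fall of the classes.

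Over all groups, the 2 tunicamycin groups had the lowest means for 14 of the 15 brighter members, Xaf1 being the exception, and for 25.7% of the 5834 genes with a mean of 16 or more. All 8 tunicamycin arrays lay below all 23 others for 6 of 7 type II members (not Tgtp1) and for 1 of 8 type I members (Ddx58), against 9.51% of those genes. For Iigp1 the highest tunicamycin array stood at 121 and the lowest other array at 646, for Irgm1 at 20 and 43, and for Igtp at 18 and 20. The means of the 6 other groups were closer together: 746 to 1067 for Iigp1 and 61.0 to 84.8 for Irgm1, where the SD of single groups reached 242 and 26.5.

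Marker sums of macrophages, endothelial cells and hepatocytes were also lower with tunicamycin in WT. That of 8 stellate cell and fibroblast markers overlapped, at 522 to 711 untreated and 509 to 691 treated. Among all genes 17.6% were called lower, 18.5% higher and 36.1% in either direction. The summed intensity of 12 Kupffer cell and macrophage markers was 890 to 1800 on untreated WT arrays and 647 to 870 with tunicamycin, and 4 of the 12 fell (Cd5l, Cd68, Lyz2 and Vsig4). The defining markers Clec4f and Adgre1 stayed above the floor or close to it on every array, at 61 or more for Clec4f and 15 or more for Adgre1. Timd4 was below 16 on all arrays. The sum of 8 endothelial markers was 450 to 581 untreated and 321 to 438 treated, with 3 called lower and 1 higher, and that of 9 hepatocyte markers was 42239 to 45148 and 39344 to 40395, with 5 lower and 1 higher. In Ire1 ko 0 of the 12 macrophage markers were called (limma, 0 also at an unadjusted p below 0.05), against 27.7% of all genes. Their sum was 2716, 889 and 946 untreated and 954 to 1323 treated. The endothelial sums (373 to 552 and 393 to 598) and the hepatocyte sums (41801 to 45296 and 42213 to 45382) overlapped in Ire1 ko. Untreated Ire1 ko replicates 2 and 3 had a lower macrophage sum than every treated Ire1 ko array. Their type II level was 72.8 and 62.7, and that of the treated Ire1 ko arrays was 16.1 to 24.8. Replicate 1, with the highest marker sum of the 31 arrays, also had the highest class levels of its group. The part of these markers in the results was not tested, and in whole tissue fewer cells of a type and less RNA per cell cannot be told apart.

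**Figure D4:**
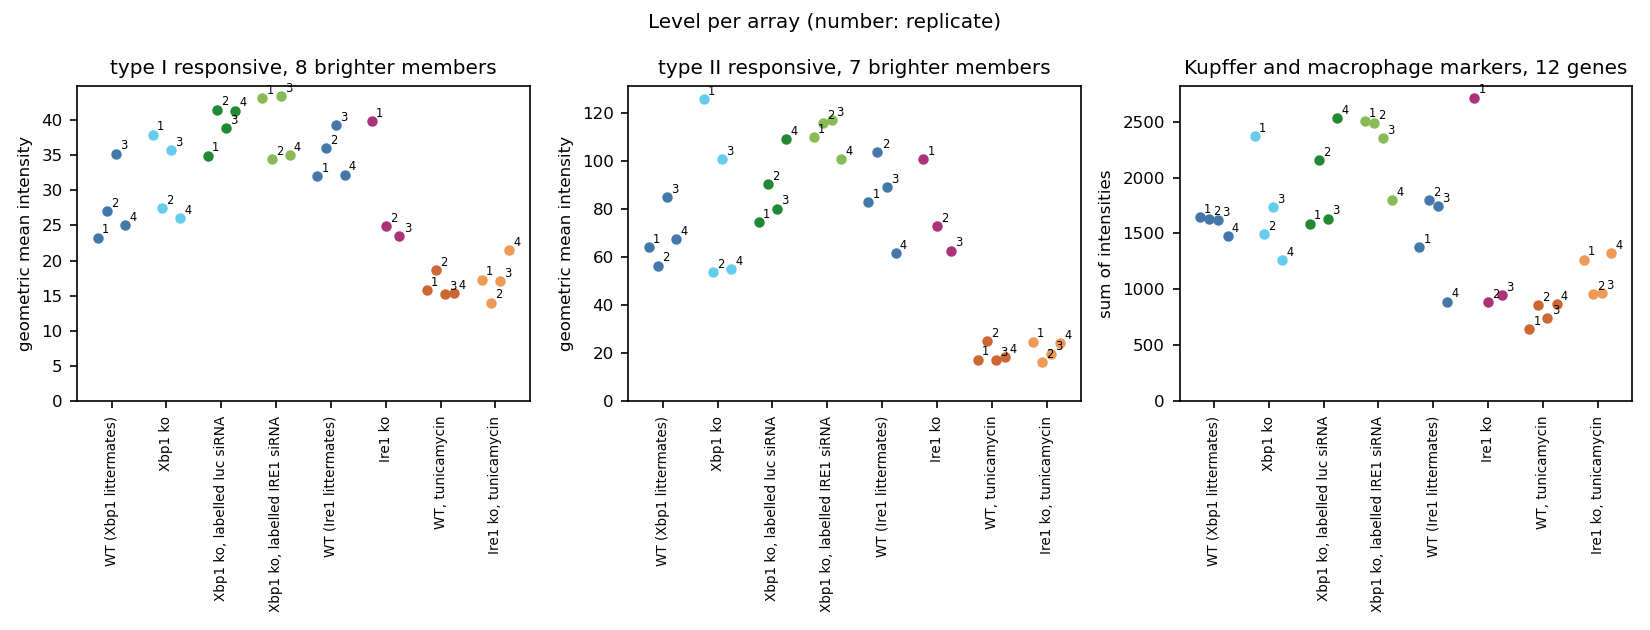
Geometric mean intensity of the 8 brighter type I members and the 7 brighter type II members, and summed intensity of 12 macrophage markers, on each array (points, with the replicate number) by group; all axes are linear from 0. Type II levels of the tunicamycin groups lie between 16.1 and 25.1, apart from all other arrays. The marker sums of Ire1 ko replicates 2 and 3 lie among those of the tunicamycin arrays.

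All 7 ligand genes measured, 5 of the alpha family with Ifnb1 and Ifng, read 3 to 7 on every array, and 0 of the 5 tested were called with tunicamycin in either genotype (limma, 0 also at an unadjusted p below 0.05). At these levels Ifnb1 was called lower in siRNA-injected against uninjected Xbp1 ko, and Ifna1 lower in WT of the Ire1 against WT of the Xbp1 experiment. Receptors and kinases moved in both directions in WT, with 3 higher and 4 lower of 10 tested, where 36.1% of all genes were called. The receptor chain Ifnar1 read 17, 12, 12 and 18 untreated and 33, 39, 36 and 35 treated, and rose by 1.30 on the log2 scale (limma, adjusted p = 1.57e-05). The kinase Tyk2 rose by 1.15, from 22, 21, 16 and 24 to 42, 47, 46 and 48. Ifngr1, a chain of the interferon gamma receptor, rose by 1.04, from 5, 8, 7 and 6 to 13, 21, 10 and 11, and Stat3 fell by 0.96. In Ire1 ko 3 rose and 1 fell: Ifngr1 by 1.44, Ifnar1 by 0.57, Jak1 by 0.43, and Stat3 fell by 1.47. Tyk2 did not pass in Ire1 ko, with 16, 23 and 16 untreated and 16, 16, 14 and 16 treated, and its interaction was -1.38 ± 0.21 (SE; limma, adjusted p = 0.000587).

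Genes for the induction of interferon were 2 higher and 3 lower of 14 in WT and 2 higher and 1 lower of 14 in Ire1 ko, near or below the 36.1% and 27.7% of all genes called. The adaptor Ticam1 (TRIF) rose by 1.09 and 0.77 on the log2 scale, the kinase Tbk1 by 0.60 and 0.61, and Irf2, an antagonist of Irf1, fell by 0.78 and 0.76. Of 6 negative regulators tested in WT, 1 was higher and 2 lower, where 36.1% of all genes were called in either direction. The phosphatase Ptpn2 rose by 1.24 in WT, from 54, 54, 60 and 48 to 130, 120, 133 and 127, and by 0.51 in Ire1 ko, from 62, 50 and 45 to 74, 84, 64 and 74. Treated and untreated arrays were apart in either genotype, and the interaction was -0.74 ± 0.17 (SE; limma, adjusted p = 0.0151). Socs3 fell by 1.16 in WT, and Usp18, also a member, was the other one lower.

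Further interferon-responsive genes, listed to set the members in their pathway, were also called lower more often than higher. Of 34 further type I responsive genes tested in WT, 15 fell and 1 rose, where 17.6% of all genes were called lower and 18.5% higher. Parp9, a partner of Dtx3l, read 208, 180, 200 and 155 untreated and 43, 45, 30 and 40 treated, a fall by 2.24 on the log2 scale. Oasl1 fell by 2.17 and Rtp4 by 1.5. Isg20, an exonuclease, moved against the rest of its list: 7, 8, 7 and 7 untreated and 228, 230, 103 and 120 treated, a rise of 4.46 (limma, adjusted p = 2.33e-10). In Ire1 ko, 9 fell and 2 rose, where 10.3% of all genes were called lower and 17.4% higher. Parp9 and Oasl1 were both at -1.85 there and Dtx3l at -1.35. The 2 that rose there were Pml, a nuclear body protein (1.52), and Isg20 (0.97). Isg20 read 7, 6 and 8 against 15, 12, 12 and 16 in Ire1 ko, and its interaction was -3.49 ± 0.33 (SE; limma, adjusted p = 6.82e-06).

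Of 14 further type II responsive genes, 6 fell in WT and 4 in Ire1 ko, and 0 rose (limma). Among all genes 17.6% were called lower in WT and 10.3% in Ire1 ko. At an unadjusted p below 0.05 (limma), 1 of the 14 was higher in WT and 0 in Ire1 ko. Subunits of the immunoproteasome, which trims peptides for antigen presentation, led this list: Psmb9 (-1.36 in WT, -1.46 in Ire1 ko), Psmb10 (-1.14 and -1.01) and Psmb8 (-0.99 and -0.93). The GTPase Gbp7 followed with -0.74 and -0.84. All of these passed the test in either genotype. The untreated and treated contrasts of WT and Ire1 ko use different arrays, but they share the estimate of spread.

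Loss of Xbp1 did not move the members past the test. In Xbp1 ko against WT littermates 0 of 28 were called (limma), where 2.71% of all genes were called in either direction. At an unadjusted p below 0.05 there was 1, Stat2, lower (-0.39 ± 0.15 SE; adjusted p = 0.283), against 14% of all genes. The spread within Xbp1 ko was wide for some members: Tgtp1 read 122, 26, 85 and 21 there and 24, 17, 32 and 18 in WT, a log2 difference of 1.15 ± 0.58 (SE; limma, adjusted p = 0.443). Rsad2 read 106, 74, 84 and 34 against 37, 59, 56 and 51, a log2 difference of 0.46 ± 0.34 (SE; adjusted p = 0.591). Replicates 1 and 3 of Xbp1 ko carried the higher values in both genes, and their type II levels, 126 and 101, stood above those of replicates 2 and 4, 53.7 and 55.1. The macrophage marker sum was likewise 2372 and 1739 on replicates 1 and 3 and 1494 and 1260 on the other arrays of the group. Outside the members, 1 of 13 genes for the induction of interferon was called, Ikbke, lower in Xbp1 ko (limma), against 2.71% of all genes.

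Loss of Ire1 without tunicamycin gave 0 calls among 28 members (limma), where 0.943% of all genes were called. At an unadjusted p below 0.05 there were 2 higher and 3 lower, against 9.5% of all genes in either direction. Ifit1 came nearest, with 18, 12 and 8 in Ire1 ko and 21, 21, 25 and 15 in WT, a log2 difference of -0.75 ± 0.22 (SE; limma, adjusted p = 0.167), and it passed when Ire1 ko replicate 1 was left out (-1.04, adjusted p = 0.0199). Igtp went the other way, with 58, 96 and 56 against 42, 61, 47 and 29, a log2 difference of 0.65 ± 0.28 (SE; limma, adjusted p = 0.469). Rsad2 read 26, 27 and 23 against 33, 37, 32 and 30, the member whose arrays did not overlap, with a log2 difference of -0.38 ± 0.31 (SE; limma, adjusted p = 0.797). Among all genes 3.64% were lower and 1.34% higher without overlap. The median over type I members was -0.20, and without replicates 1 and 3 of Ire1 ko in turn it was -0.49 and -0.05. Outside the members, 1 of 14 genes for the induction of interferon was called, Ikbke, lower in Ire1 ko (limma), against 0.943% of all genes.

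Between the siRNA groups as labelled, 0 of 28 members were called (limma), where 1.79% of all genes were called. At an unadjusted p below 0.05 there were 4 higher and 1 lower, against 14.8% of all genes in either direction, and the 4 higher were all type II responsive. Igtp read 60, 66, 47 and 47 on the arrays labelled IRE1 siRNA and 27, 40, 33 and 39 on those labelled luciferase siRNA, a log2 difference of 0.66 ± 0.17 (SE; limma, adjusted p = 0.124). Irgm2 read 69, 79, 84 and 69 against 43, 56, 43 and 63, a log2 difference of 0.57 ± 0.15 (SE; limma, adjusted p = 0.128). These were the 2 members without overlap, both higher, where 4.23% of all genes were higher and 2.51% lower without overlap. With dim genes left out or set to a floor of 16, so that fewer genes were tested, both passed (adjusted p between 0.0329 and 0.0396). Ifi47 (0.24) and Iigp1 (0.22) were the other 2, and Xaf1 (-0.31) was the lower one. Outside the members, 1 of 13 further type II responsive genes was called, Ido1, higher on the arrays labelled IRE1 siRNA (limma), against 1.79% of all genes. All of these directions turn if the labels were exchanged. The macrophage marker sum was 1797 to 2505 on the arrays labelled IRE1 siRNA and 1588 to 2529 on the others, 0 of its 12 genes were called and 2 were higher at an unadjusted p below 0.05 (limma), and its part was not tested.

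The siRNA-injected Xbp1 ko mice had higher levels of many members than uninjected Xbp1 ko mice: 12 of 28 were higher and 0 lower (limma, adjusted p below 0.05), where 16.7% of all genes were higher, 6.41% were lower and 23.2% were called in either direction. The injected mice were also 9 and not 14 weeks old, and their labels name no feeding state. Injection, age, feeding and experiment therefore cannot be told apart. Of the 18 type I members tested 9 rose, and of the 10 type II members 3, and the classes were not tested against each other. Usp18 read 22, 27, 23 and 23 and 22, 21, 38 and 17 in the injected groups and 13, 8, 13 and 8 uninjected, a log2 difference of 1.21 ± 0.21 (SE; limma, adjusted p = 0.00143). Ifit1 read 15, 17, 18 and 15 and 15, 10, 16 and 10 against 9, 6, 8 and 7, a log2 difference of 0.94 ± 0.15 (SE; limma, adjusted p = 0.00101). All 8 injected arrays were above all 4 uninjected ones for these 2 genes and for 1 further member, Parp14 (0.72), against 7.44% of all genes, and 0 members were lower without overlap, against 2.79%.

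The other type I members that rose were Irf7 (0.66), Oasl2 (0.53), Xaf1 (0.47), Ddx58 (0.46), Ifih1 (0.43) and Eif2ak2 (0.40), and the type II members were Irgm2 (0.64), the guanylate-binding protein Gbp2 (0.58) and Irgm1 (0.43). Calls of Irgm2 and Irgm1 were lost in 13 and 11 of 21 other settings, and those of Irgm1, Irgm2, Ddx58, Ifih1 and Eif2ak2 without uninjected replicate 2 or 4. Those of Xaf1, Parp14 and Ddx58 were lost with the mean of all probe sets, and those of Xaf1 and Irf7 with 1 fit over 31 arrays (limma, adjusted p up to 0.133). Rsad2 had the lowest value, -0.71 ± 0.26 (SE; limma, adjusted p = 0.0655), with 34 to 106 uninjected and 35 to 61 injected. In the same comparison all 12 macrophage markers had differences above 0, with a median of 0.40 beside 0.42 for the members; 2 were called higher (Cd68 and Vsig4), 6 had an unadjusted p below 0.05, and their part was not tested. Iigp1 was at -0.32 (limma, adjusted p = 0.0792).

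Untreated WT mice of the same age differed between the experiments in 3 of 28 members (limma, adjusted p below 0.05). That share was close to the 8.37% of all genes called in either direction. All 3 were higher in the Ire1 experiment, against 5.68% of all genes that were higher and 2.69% that were lower. Ifit1 read 21, 21, 25 and 15 there and 10, 6, 12 and 7 in the Xbp1 experiment, a log2 difference of 1.26 ± 0.25 (SE; limma, adjusted p = 0.0241). Parp14 read 34, 31, 38 and 30 against 20, 19, 26 and 14 (0.78; adjusted p = 0.0417), and Zbp1 10, 11, 11 and 15 against 7, 8, 8 and 6 (0.69; adjusted p = 0.035). None of the 3 overlapped between the experiments, as for 9.31% of all genes that were higher and 4.18% that were lower without overlap. These calls were not firm: 0 members passed without replicate 2 or 4 of the Xbp1 experiment or without replicate 1, 2 or 3 of the Ire1 experiment, and without replicate 1 of the Xbp1 experiment all 3 calls were lost and Rsad2 passed, lower. Rsad2 read 33, 37, 32 and 30 against 37, 59, 56 and 51, a log2 difference of -0.60 ± 0.16 (SE; limma, adjusted p = 0.0551), opposite in sign to the 3.

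**Figure D5:**
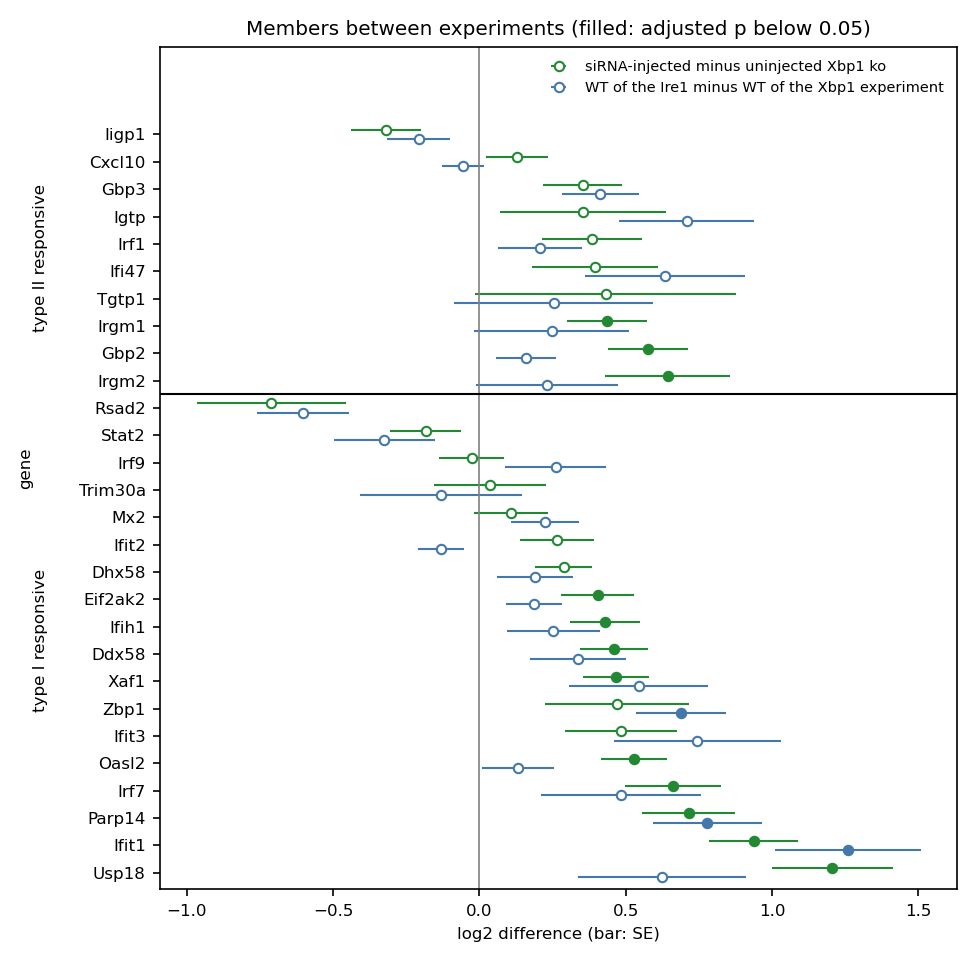
Log2 difference with its SE for the 28 members tested, for siRNA-injected minus uninjected Xbp1 ko and for WT of the Ire1 experiment minus WT of the Xbp1 experiment; filled points have an adjusted p below 0.05. Usp18 and Ifit1 lie farthest right and Rsad2 farthest left in the first comparison.

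Within groups, arrays also differed together. After each gene was centred on its group means, the 10 genes outside the list whose log2 values followed the mean of the brighter type I members most closely over the 31 arrays were picked, out of 5834 genes with a mean of 16 or more. They were Ifi27l2a (r = 0.88), Rtp4 (0.88), Samd9l (0.83), Ccpg1, Samhd1, Cyba, Mpeg1, Clec4f, Oas1g and Tmem176a, the last at 0.79. Of these, 4 stood on the list of further type I responsive genes, and Clec4f, the Kupffer cell lectin, stood on the macrophage list. The 10 macrophage markers compared lay between 0.48 (Lyz2) and 0.80 (Clec4f), with C1qc at 0.79, Cd5l at 0.66 and Adgre1 at 0.53. The 8 type I members that form that mean lay between 0.37 (Irf9) and 0.85 (Ifit3), with Irf7 at 0.81 and Ddx58 at 0.52. The type II members Ifi47 and Tgtp1, which are not part of it, stood at 0.80 and 0.79 and Igtp at 0.47. These values are a description over 31 arrays that share tissue and normalization.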

How the data were processed

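Liver RNA of 31 mice was measured on 1 array each. The deposited values are linear intensities without decimals, made with RMA in the affy package per the submitters' processing notes. RMA corrects background, makes the arrays' distributions alike and summarises probes, so a shift shared by all genes would be removed. Values ran from 3 to 24483. The platform annotation gave 1 symbol to 28898 of 45037 probe sets, several to 551 (not used), and did not list 15588, which are unnamed here.

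Log2 intensities were fitted with limma 3.58.1 in R 4.3.3 (lmFit, eBayes with a trend), for the arrays of each comparison, or all 4 groups of the Ire1 experiment. Genes above the array's 30th percentile on at least 3 arrays were tested, Benjamini-Hochberg adjustment ran over all of them, and the threshold was 0.05. The labels call the samples biological replicates, and the number of arrays limits the precision. Scripts were tested on simulated data. Alternatives were normalization, filters, a floor of 16, all probe sets of a gene, 1 fit over all arrays, no trend, a replicate block and leaving out each array. The samples were treated as unpaired. Arrays of the same replicate number correlated between -0.18 and 0.29 after centring on group means, which does not show that they were unpaired. Members and lists were chosen with earlier results of these data known. From the pathway lists, some of the called genes were named, up to 4 per list and comparison, and genes whose interaction passed the test. Not every called gene of these lists is given. The 10 genes most like the type I mean were named by their correlation.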

Additional observations from a re-analysis of the deposited data

Results flagged for a closer look

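Of 105 sets of arrays (a brighter member in a group of 4) looked at for an array far from the others, 3 had one, where chance gives about 1 in 20. Ifih1 read 62 on replicate 4 of the arrays labelled IRE1 siRNA and 76 to 79 on the others of its group. Igtp read 34 on replicate 3 of the WT littermates of Xbp1 ko and 24 to 25 on the others. Irgm1 read 111 on replicate 2 of untreated WT in the Ire1 experiment and 74 to 78 on the others.

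The tunicamycin change in Ire1 ko minus that in WT passed the test in 5 genes of the pathway lists (limma interaction, log2 scale with SE). It was -3.49 ± 0.33 for Isg20 (adjusted p = 6.82e-06), -1.38 ± 0.21 for Tyk2 (adjusted p = 0.000587) and -0.74 ± 0.17 for Ptpn2 (adjusted p = 0.0151). It was positive for Pml, a scaffold of nuclear bodies, at 1.96 ± 0.32 (adjusted p = 0.00098), and for Pias4, a SUMO ligase listed among the negative regulators, at 0.94 ± 0.26 (adjusted p = 0.0381). Pml read 15, 15, 15 and 11 in untreated WT, 13, 12, 10 and 7 in treated WT, 12, 11 and 7 in untreated Ire1 ko and 38, 23, 25 and 28 in treated Ire1 ko. Pias4 read at most 20 on all of these arrays, with 10, 10 and 8 in untreated and 15, 11, 13 and 15 in treated Ire1 ko.

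A second Xaf1 probe set, which the comparisons did not use, was picked out after its values were seen. Its mean was 24.7 in untreated Ire1 ko, from 35, 31 and 8, while it read 4 to 5 in untreated WT of the same experiment. It read 16, 14, 5 and 4 in treated Ire1 ko, 14 on replicate 1 of treated WT, and 4 to 5 on every other array. The Ire1 ko arrays are those labelled as a mixed strain, so genotype and strain cannot be told apart.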

How the results depend on the processing

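No called value changed sign under the alternatives run. Class medians close to 0 did: type II for untreated Ire1 ko against WT (-0.11, up to 0.08 with an array left out), both classes for Xbp1 ko against WT (type I 0.03, down to -0.06 without members that respond to both interferons; type II 0.07, down to -0.06 without Xbp1 ko replicate 1), type I between the siRNA groups (0.04, down to -0.02 with arrays at a common median) and type II between the treated genotypes (0.04, down to -0.07 with an array left out). Between the siRNA groups as labelled, 1 member passed once the arrays shared the median of their brighter probe sets (the common median), and 2 passed with genes of a group mean of 16 or more only and with a floor of 16. Between untreated Ire1 ko and WT, leaving out an array gave 0 to 1 members. The type I median after tunicamycin in WT was -1.20 with genes of a group mean of 16 or more only, since dim members then drop out. In Ire1 ko 19 members fell with tunicamycin under the common median, which shifts arrays by -0.25 to 0.14 on the log2 scale. Leaving out an array gave 15 to 17 members after tunicamycin in WT, 10 to 14 in Ire1 ko and 8 to 14 for siRNA injection. Between treated Ire1 ko and treated WT, 1 member passed with quantile normalization, with the mean of all probe sets and with the replicate block, 2 with the common median and with the stricter filter, and 3 with 1 fit over 31 arrays, and 0 to 2 passed with an array left out. For the interaction, 1 member passed with the floor and 0 to 3 with an array left out. Between the untreated WT groups, 6 members passed with the common median, 1 with no filter and 0 with the replicate block, and 0 to 3 with an array left out. The causes were not tested unless given. With the replicate block, members called numbered 16 and 11 after tunicamycin in WT and Ire1 ko, 10 for siRNA injection and 0 in the other comparisons not yet named. Values near the floor limit what can be seen in 14 of the 29 members.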
